A study of Mus musculus with 69 samples.

Results

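The genes described here encode proteins that bind DOT1L, the enzyme that methylates lysine 79 of histone H3, or that build the super elongation complex. They are Mllt1, Mllt3, Mllt6, Mllt10, Aff1, Aff3, Aff4, Ell, Ell2 and Cdk9. All 10 were found among the 52636 gene IDs of the count table by their Ensembl IDs, all 10 were among the 14016 genes with enough counts to be tested, and 9 of the 10 had peaks under their names in the H3K79me2 lists. Those lists named 12297 genes in Standard and 11255 in ELS. The share of the tested genes that had a peak was not computed, so 9 of 10 is not set against it.

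Samples came from the nucleus accumbens, a ventral striatal region that handles reward, of male mice raised under Standard conditions or under early life stress (ELS). RNA came from 4 groups of 8 libraries each: Standard GFP, ELS GFP, Standard Dot1l overexpression and ELS Dot1l knockdown. Overexpression was thus made only in Standard mice and knockdown only in ELS mice. Chromatin precipitated for H3K79me2 came from 9 Standard and 9 ELS samples that carry no such label, with 9 and 10 inputs, and it is summarised in 1 peak list per rearing condition. The labels give no age, no vector, no promoter and no count of animals pooled per library. The series' text speaks of D2-type medium spiny neurons, while the protocol took RNA from whole tissue. No label says that libraries of a group came from separate animals, so p-values measure the spread between libraries, which may be technical.

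DOT1L adds methyl groups to H3K79 in the bodies of transcribed genes, and H3K79me2 is a mark of active transcription that is densest in the first part of a gene. MLLT10 (AF10) and MLLT6 (AF17) bind DOT1L and help it to methylate. MLLT1 (ENL) and MLLT3 (AF9) carry a YEATS domain that reads acylated histones, and they can join either DOT1L or the super elongation complex. In that complex the scaffolds AFF1 and AFF4 hold together the elongation factors ELL and ELL2 and the kinase CDK9, which with a cyclin T partner forms P-TEFb and releases paused RNA polymerase II. AFF3 is a relative of these scaffolds. Several of the human genes are fusion partners of MLL1 in leukaemia.

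The members fell into 4 kinds by the position of H3K79me2 relative to their starts, and promoter windows of each kind are printed for that reason. Each is the RefSeq sequence (GRCm38.p6) of the 250 bases before the start, 5′ to 3′ on the strand of the gene, with GC boxes (GGGCGG or CCGCCC, the 2 strands of 1 motif) in capitals. Where 2 boxes overlap they form 1 longer run of capitals. Mllt1 (chr17:56935389-56935638, minus strand) was the only member whose upstream window met a peak, which it did in both lists. Cdk9 (chr2:32712785-32713034, minus strand) had its first peak inside the gene, close to the start. Mllt10 is shown at its outer RefSeq start (chr2:18054987-18055236, plus strand) and at its inner one (chr2:18064335-18064584, plus strand), since its peaks began after the inner one. Ell2 (chr13:75707234-75707483, plus strand) had its first peak far into the gene, and Mllt6 (chr11:97663162-97663411, plus strand) had none.
Mllt1: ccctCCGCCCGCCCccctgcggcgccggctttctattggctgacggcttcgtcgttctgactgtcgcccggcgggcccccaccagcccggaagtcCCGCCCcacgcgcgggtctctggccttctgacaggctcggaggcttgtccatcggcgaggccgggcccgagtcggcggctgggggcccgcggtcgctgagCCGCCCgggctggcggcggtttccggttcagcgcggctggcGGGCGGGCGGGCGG
Cdk9: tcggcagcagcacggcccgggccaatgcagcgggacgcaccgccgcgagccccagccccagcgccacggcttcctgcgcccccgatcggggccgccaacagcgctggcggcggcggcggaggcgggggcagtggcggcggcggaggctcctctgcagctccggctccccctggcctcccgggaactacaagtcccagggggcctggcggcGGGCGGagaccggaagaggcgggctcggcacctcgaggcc
Mllt10 outer: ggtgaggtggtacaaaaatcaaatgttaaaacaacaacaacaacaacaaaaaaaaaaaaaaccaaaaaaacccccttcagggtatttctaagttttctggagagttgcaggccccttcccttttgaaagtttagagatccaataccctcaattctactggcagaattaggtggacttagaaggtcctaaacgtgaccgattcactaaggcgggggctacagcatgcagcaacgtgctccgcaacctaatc
Mllt10 inner: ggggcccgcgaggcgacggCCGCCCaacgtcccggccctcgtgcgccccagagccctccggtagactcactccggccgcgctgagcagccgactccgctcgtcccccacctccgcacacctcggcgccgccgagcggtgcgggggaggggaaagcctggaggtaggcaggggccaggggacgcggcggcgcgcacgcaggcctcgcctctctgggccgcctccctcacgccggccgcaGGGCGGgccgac
Ell2: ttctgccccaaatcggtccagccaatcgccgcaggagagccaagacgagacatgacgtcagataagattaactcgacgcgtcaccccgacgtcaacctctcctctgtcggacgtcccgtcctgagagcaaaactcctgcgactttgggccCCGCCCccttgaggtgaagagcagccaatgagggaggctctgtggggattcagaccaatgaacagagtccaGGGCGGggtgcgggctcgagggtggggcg
Mllt6: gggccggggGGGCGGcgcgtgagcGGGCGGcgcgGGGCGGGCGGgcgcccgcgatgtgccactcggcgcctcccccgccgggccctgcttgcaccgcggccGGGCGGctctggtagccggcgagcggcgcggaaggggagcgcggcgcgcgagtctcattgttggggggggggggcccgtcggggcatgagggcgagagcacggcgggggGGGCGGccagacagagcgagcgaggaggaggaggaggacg

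A GC box stood in at least 1 window of 9 of the 10 members, the exception being Aff4, and in 10 of the members' 14 RefSeq windows. Of all 32536 mouse promoter windows of this length, 33.0% held one. The Mllt1 window held 7 boxes, overlapping ones counted separately, and the Mllt6 window held 6. The outer Mllt10 window held 0 boxes, 5 CG pairs and 42.4% G and C, whereas the inner one held 2 boxes, 36 CG pairs and 79.2% G and C. These are letter matches, not binding sites. GC boxes and peaks at the start did not go together in every member: Ell2, with 2 boxes, and Mllt6, with 6, lacked peaks there. Aff4, with 0, had a Standard peak of 233 bases beginning 225 bases after its start, but its first ELS peak began 1267 bases after it. The shares of marked starts with and without a box were not computed.

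Peaks were compared between lists by position and width, since each rearing condition has a single list and no replicate check is possible. The fold of a peak is the authors' enrichment value, over a background that the files do not name. Folds are given per list and are not read as differences between conditions. Over all peaks the highest fold was 6.37 in Standard and 3.82 in ELS, and the median 1.96 and 1.92. Under the 9 members' names stood 357 Standard and 332 ELS peaks. They covered 366 kb and 269 kb, so the ELS list covered 0.736 times the bases of the Standard list. Every one of the 9 was covered over fewer bases in ELS. Of all 9008 protein-coding genes with a peak in either list, 93.3% were too, and the median ratio over genes with peaks in both lists was also 0.736 (quartiles 0.586 and 0.843). The members' difference in covered length thus had the size of that of the lists as wholes, which covered 126.0 Mb in Standard and 92.6 Mb in ELS. The depth behind each list is unknown here, and its part in this difference was not tested.

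Of the members' Standard peaks, 65.0% overlapped an ELS peak by at least 1 base, and 88.0% of their ELS peaks overlapped a Standard one. Over all peaks of the lists the shares were close to these, at 62.6% of 117819 Standard and 90.8% of 106374 ELS peaks. By bases, Standard peaks also covered 54.6% of the ELS peak length of Aff3, 58.0% of that of Aff1 and 64.6% of that of Ell2. In the other members with peaks this share was 89.5% to 98.1%. Among the 357 Standard peaks, 125 met no ELS peak, 174 met 1 and 58 met several. More separate peaks in ELS than in Standard were counted in 4 of the 9 members, namely Aff4, Ell, Ell2 and Cdk9, against 32.2% of the 8054 protein-coding genes with peaks in both lists. In Cdk9 a Standard peak of 2910 bases began 378 bases after its start, and the ELS list held narrower peaks over that stretch, among them ones of 898 and 956 bases.

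**Figure D1:**
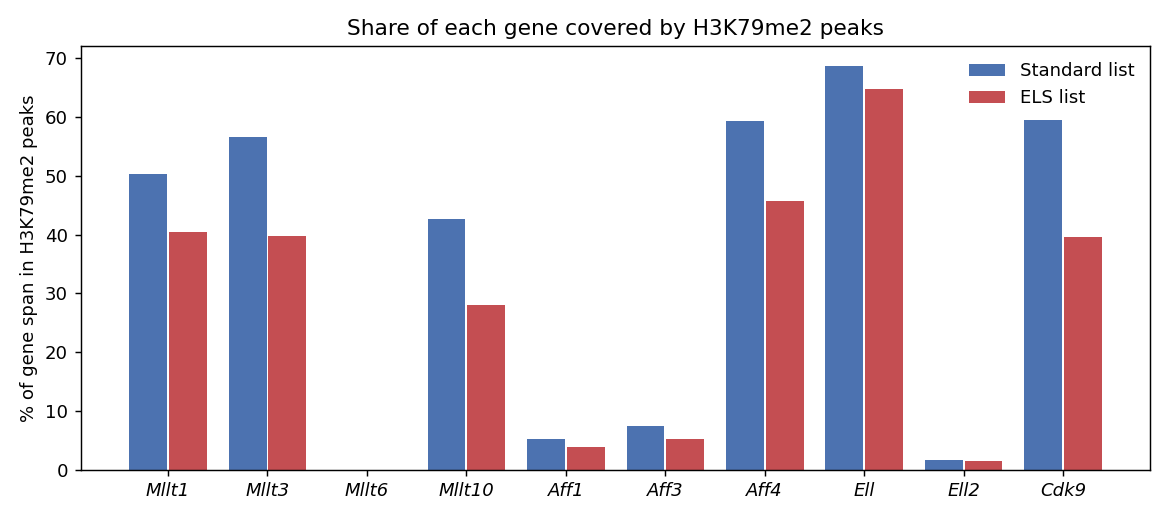
Share of each gene's annotated span (y axis, percent) that lay in H3K79me2 peaks, blue for Standard and red for ELS, without error bars because each condition has 1 list. Ell, Cdk9 and Aff4 had the largest Standard shares, Ell2 the smallest above 0, Mllt6 had no peak, and every ELS bar is shorter than its Standard bar.

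Among the DOT1L partners, Mllt1 (chr17, 42.8 kb) carried the strongest peak of any member. In Standard it spanned 4894 bases from 60 bases before the start into the gene, at a fold of 3.66. In ELS the peak at the start was 1229 bases wide, at a fold of 3.27, and a second peak of 3455 bases followed it inside the gene. Peaks covered 50.3% of the gene in Standard and 40.5% in ELS. Dot1l itself had a comparable arrangement, with a peak of 4502 bases beginning 60 bases after its start at a fold of 3.80 in Standard and one of 2105 bases at 3.08 in ELS.

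Mllt3 (chr4, 263 kb) had 139 Standard and 129 ELS peaks spread over most of its length, which covered 56.6% and 39.8% of it. Its 149 kb of Standard coverage put it at the 99.3rd percentile of all genes with peaks. The highest fold lay deep inside the gene, beginning 136703 bases from the start in Standard (2.86) and 137181 bases from it in ELS (2.76). Mllt10 (chr2, 157 kb) was covered over 42.6% and 28.1% of its span. Its first peak began 13718 bases after the outer start but 4370 bases after the inner RefSeq start in Standard, and 5075 bases after the inner start in ELS.

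Mllt6 was the exception. No line of either list as used here carried its name, and no peak lay on its RefSeq span (chr11:97663122-97685461, plus strand, 22340 bases). Within 50 kb of it stood 8 Standard and 5 ELS peaks. Its RNA was nonetheless present in every library. Group medians lay between 55.8 and 57.6 CPM (counts per 1e6 counts of the library, scaled by TMM factors as explained below).

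Of the scaffolds, Aff4 (chr11, 71 kb) was densely marked and its relatives were not. Peaks covered 59.3% of Aff4 in Standard and 45.8% in ELS, with highest folds of 3.20 and 2.69. They covered 5.17% and 3.88% of Aff1 (chr5, 163 kb) and 7.43% and 5.28% of Aff3 (chr1, 488 kb). In both of the latter the annotated span began far upstream of the first peak. The first Standard peak of Aff1 began 63147 bases from that annotated start but 1359 bases after the first RefSeq start (base 103754162 of chr5). The first of Aff3 began 40066 bases from the annotated start but 2355 bases after the RefSeq start (base 38627244 of chr1). Aff1, Aff3 and Mllt10 thus shared a mark that started after an inner start site and left the outer part of the annotated span unmarked. Of the peaks of Aff1 and Aff3, 47.1% and 47.6% in Standard overlapped an ELS peak, the lowest shares among the members, and their highest folds were 2.37 and 2.33.

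The elongation factors differed from each other. Ell (chr8, 53.2 kb) was the most completely marked member, with 68.7% of its span in Standard peaks and 64.8% in ELS peaks. A single Standard peak of 23091 bases at a fold of 3.27 was the widest among all members, and the widest ELS peak of Ell measured 17488 bases. Ell2 (chr13, 64.9 kb) had 2 Standard and 3 ELS peaks that covered 1.58% and 1.45% of its span. Its highest folds were 1.82 and 1.85, both below the medians of all peaks in the respective lists. Its first Standard peak began 16320 bases and its first ELS peak 14077 bases after the start. The kinase gene Cdk9 (chr2, 7.29 kb) was covered over 59.6% in Standard and 39.6% in ELS, with highest folds of 2.42 and 2.29.

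With each span cut into 3 equal parts, the first part held more covered bases than the last in 8 of the 9 members in both lists. This was also the case in 84.3% of 8875 protein-coding genes with Standard peaks and 84.7% of 8187 with ELS peaks. Ell had 98.4% of its first part and 11% of its last part in Standard peaks, and Aff4 had 94.0% and 18.7%. Aff1 was the exception, with 0% of its first part covered in either list.

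**Figure D2:**
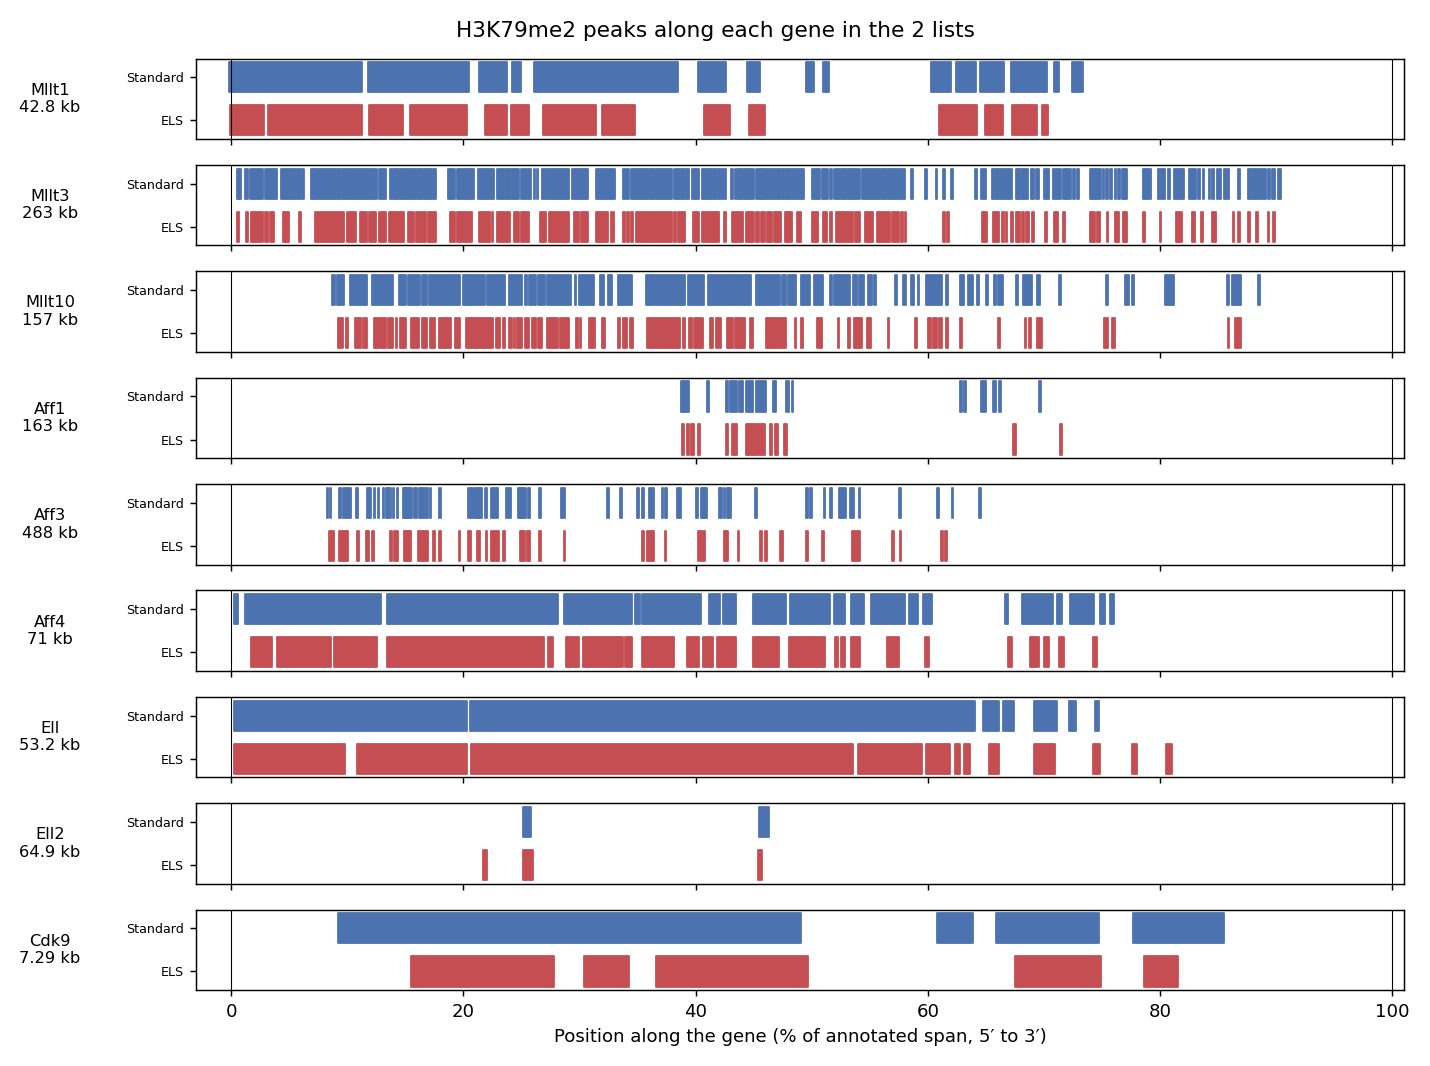
H3K79me2 peaks of the 9 members with peaks, as blocks along the annotated span from start to end (x axis, percent of the span), with the Standard list above the ELS list and the length of each gene at the left. Blocks cover more of the first of 3 equal parts than of the last in every gene shown but Aff1. In Aff1, Aff3, Mllt10, Ell2 and Cdk9 the first block begins away from the start of the span. Those of Mllt3 run over most of its length, and Ell2 has only 2 and 3.

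RNA levels are given as CPM scaled by TMM factors, which correct for differences in composition between libraries, and they are compared within a gene only. Libraries held 0.314 to 11.1 M counts (M, 1e6). Those under 1 M, called shallow here, were 3 of Standard GFP and 1 of ELS Dot1l knockdown. Beyond depth, 4 libraries (Standard GFP replicates 5 and 6, ELS GFP replicate 2 and Standard Dot1l overexpression replicate 1) each held over 50% of their group's summed CPM in more than 300 genes, and results that rest on them are given with and without them. Dot1l, the targeted gene, had group medians of 36.3 CPM in Standard GFP, 37.7 in Standard Dot1l overexpression, 35 in ELS GFP and 38.4 in ELS Dot1l knockdown. The library label "knockdown" was not matched by a lower level: the log2 difference from ELS GFP was 0.28 (SE 0.27, edgeR adjusted p = 0.985), and that of overexpression from Standard GFP was 0.33 (SE 0.27, adjusted p = 0.741). Directions below are therefore those of libraries labelled knockdown or overexpression. All 12 medium spiny neuron markers were detected, with summed levels of 521 to 2890 CPM per library and a median of 1300 in Standard GFP against 739 to 817 in the other groups. Markers of other cell types were detected in every group too, with summed levels of 1340 to 4000 CPM for 9 astrocyte markers and 423 to 2840 CPM for 8 microglial ones. The sum over 10 oligodendrocyte markers had a median of 907 CPM in Standard GFP against 609 in ELS GFP, 588 in overexpression and 509 in knockdown. The part of these marker levels in the results below was not tested. In such bulk tissue, fewer cells of a type and less RNA per cell cannot be told apart.

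No member passed the test in any of the comparisons. With edgeR's quasi-likelihood test and adjustment over 14016 genes, the members' adjusted p was 0.461 to 0.971 for ELS GFP against Standard GFP, 0.33 to 0.971 for Standard Dot1l overexpression against Standard GFP, 0.983 to 0.998 for ELS Dot1l knockdown against ELS GFP, and 0.356 to 0.987 for ELS Dot1l knockdown against Standard GFP. The background in each of these 4 comparisons was 0% of genes called at an adjusted p under 0.05. At an unadjusted p under 0.05 it was 11.7%, 10.9%, 6.18% and 10.8% of genes in the same order, against 0, 1, 0 and 1 of the 10 members, a share near or below the background. A test for any difference among the 4 groups called 178 genes, or 1.27%, at an adjusted p under 0.05, and none was a member (lowest adjusted p = 0.478). At an unadjusted p under 0.05 that test took 12.4% of genes and 0 members. On simulated counts for ELS GFP against Standard GFP, 17% of 2-fold and 70% of 4-fold changes over 14016 genes were recovered, with the changed genes drawn from all genes and not from the members.

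**Figure D3:**
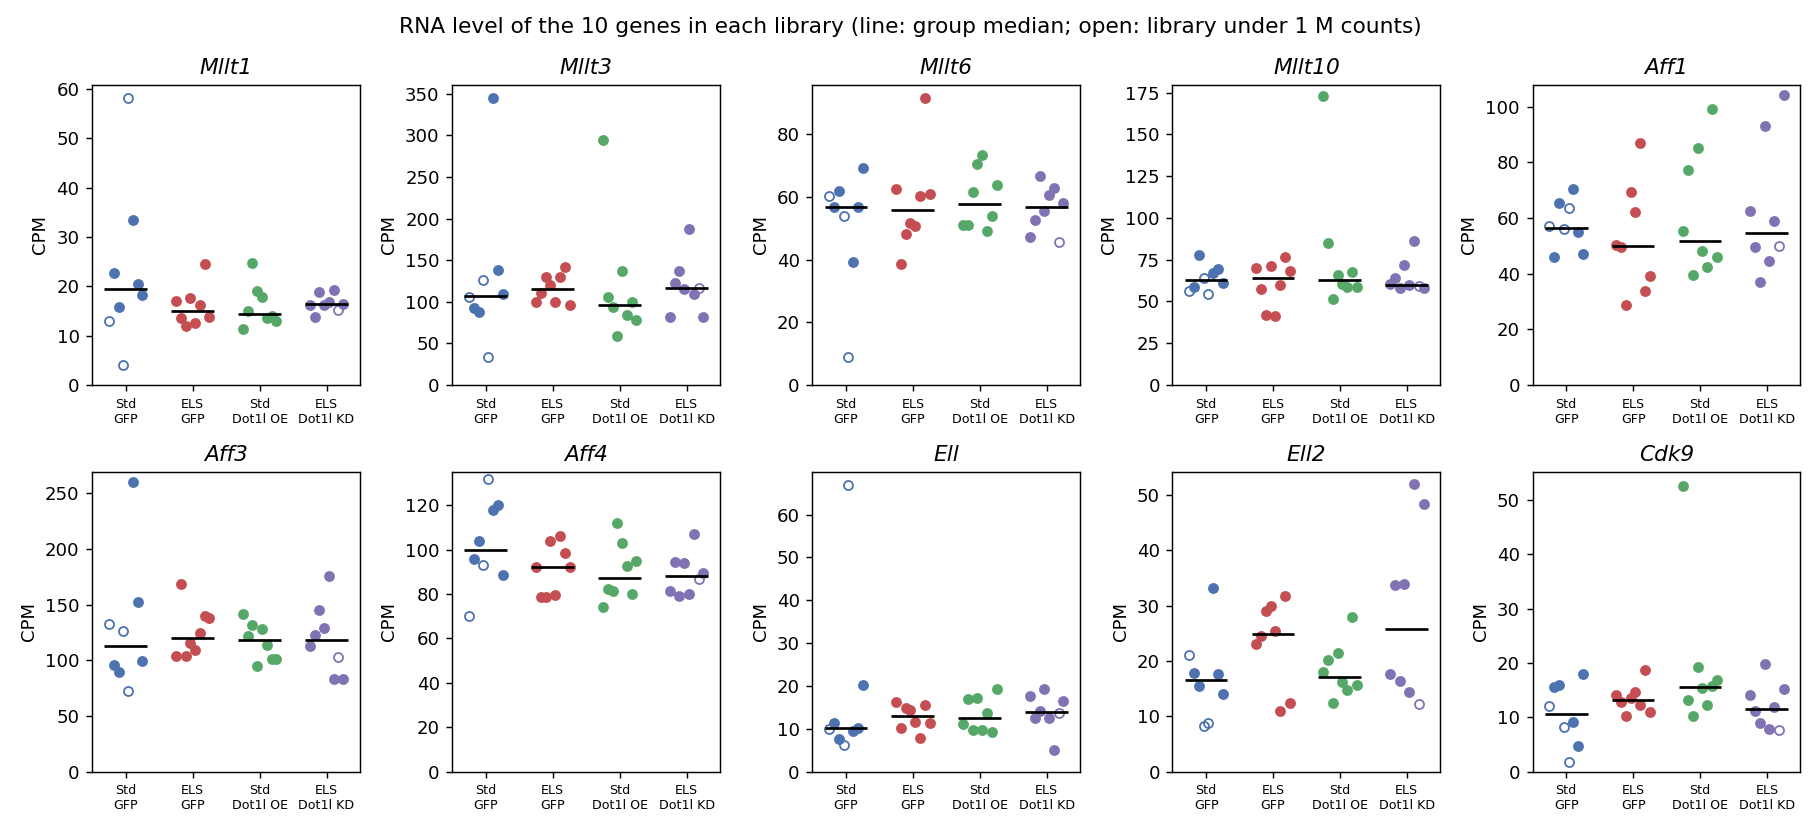
CPM of each member in each of the 32 libraries (y axis, linear from 0), by group (Std, Standard; OE, overexpression; KD, knockdown), with a line at the group median and open points for libraries under 1 M counts. Groups overlap in all 10 panels, and single libraries of Standard GFP and Standard Dot1l overexpression stand far above the rest for Mllt3, Mllt10, Aff3, Ell and Cdk9.

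The members' median log2 difference was -0.10 in ELS GFP against Standard GFP, where 3 were higher and 7 lower, beside a median of -0.013 over all genes, of which 48.8% were higher. Without the 4 libraries named above, 6 members were higher and 4 lower in that comparison and their median was 0.03, beside 0.019 over all genes. With all libraries, the members' median was -0.03 for overexpression against Standard GFP and 0.05 for knockdown against ELS GFP, beside 0.018 and 0.002 over all genes. The size of the members' differences, disregarding sign, had a median of 0.17, 0.20 and 0.08, and that of all genes a median of 0.32, 0.31 and 0.26. The first 2 of these comparisons, and the one of knockdown against Standard GFP, share the 8 Standard GFP libraries.

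Mllt1 ranged from 4.14 to 58.1 CPM in Standard GFP (median 19.4), from 11.9 to 24.5 in ELS GFP (median 14.9), from 11.4 to 24.8 in overexpression (median 14.4) and from 13.7 to 19.2 in knockdown (median 16.4). Only 1 of 8 ELS GFP libraries exceeded the Standard GFP median, and the highest and lowest values of all belonged to shallow Standard GFP libraries. The log2 differences from Standard GFP were -0.53 (SE 0.28, adjusted p = 0.461) in ELS GFP and -0.51 (SE 0.28, adjusted p = 0.52) in overexpression. Without Standard GFP replicate 5, which held the highest value, they were -0.25 and -0.23, and without the 4 libraries named above -0.06 and -0.00.

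Mllt3, the other YEATS gene, ranged from 33.5 to 345 CPM in Standard GFP and from 96.4 to 142 CPM in ELS GFP, with medians of 108 and 115. It ranged from 58.4 to 294 CPM in overexpression and from 81.2 to 188 CPM in knockdown, with medians of 96.9 and 116. The upper end in Standard GFP and in overexpression came from 1 library in each, the next ones being at 138 and 137 CPM. The lowest Standard GFP value was that of replicate 5, a shallow library. The log2 difference of ELS GFP from Standard GFP was -0.17 (SE 0.30), and without Standard GFP replicate 6 it was 0.22.

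Mllt6 and Mllt10 encode direct partners of DOT1L. The group medians of Mllt6 spanned a ratio of 1.03 between the lowest and highest group, the smallest among the members, and those of Mllt10 (60.1 to 64.2 CPM) spanned 1.07, as did those of Aff3. Mllt6 ranged from 8.81 to 69.3 CPM in Standard GFP, 38.7 to 91.5 in ELS GFP, 49.2 to 73.2 in overexpression and 45.6 to 66.6 in knockdown. Mllt10 ranged from 54.6 to 77.6 CPM, 41.6 to 76.5, 51.7 to 173 and 57.8 to 86.1 in the same order. Its difference in overexpression of 0.28 (SE 0.20, adjusted p = 0.69) was 0.01 without overexpression replicate 1.

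The scaffold genes lay close together across groups. Group medians ran from 50.0 to 56.5 CPM for Aff1, 113 to 121 for Aff3 and 87.4 to 99.8 for Aff4. Single libraries ranged from 28.7 to 104 CPM for Aff1, 72.2 to 260 for Aff3 and 70.1 to 132 for Aff4. Standard GFP was the narrowest group for Aff1, with a coefficient of variation of 14.9% against 36.4% to 38.2% in the other 3 groups; 3 of 8 ELS GFP libraries lay below its whole range and 1 above it. The largest log2 difference of these 3 genes in the 4 comparisons was 0.25, and the SEs were 0.15 to 0.24.

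Ell had medians of 10.2 CPM in Standard GFP, 13.0 in ELS GFP, 12.5 in overexpression and 13.9 in knockdown. Its fitted differences from Standard GFP had the opposite direction to these medians, -0.38 (SE 0.35), -0.32 (SE 0.35) and -0.26 (SE 0.36). The direction rested on 1 library: Standard GFP replicate 5, a shallow one at 66.9 CPM, held 47.1% of the group's sum. Without it the differences were 0.21, 0.27 and 0.33, and still no call was made.

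Ell2 had the widest separation of group medians among the members, a ratio of 1.55. It ranged from 8.28 to 33.1 CPM in Standard GFP (median 16.6), from 12.4 to 28.0 in overexpression (median 17.2), from 11 to 31.8 in ELS GFP (median 25.0) and from 12.2 to 52.0 in knockdown (median 25.8). In ELS GFP, 6 of 8 libraries lay above the Standard GFP median, the lower ones being at 11 and 12.5 CPM. In knockdown, 4 libraries stood at 33.8, 33.9, 48.3 and 52.0 CPM, above every Standard GFP and ELS GFP library, and the other 4 lay between 12.2 and 17.7 CPM. The log2 difference was 0.42 (SE 0.30, adjusted p = 0.654) for ELS GFP and 0.72 (SE 0.30, p = 0.0231, adjusted p = 0.356) for knockdown, each against Standard GFP. Between knockdown and ELS GFP it was 0.30 (SE 0.30, adjusted p = 0.987).

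Both ELS groups therefore had higher Ell2 medians than both Standard groups, 25 against 17 CPM over 16 libraries each. A comparison of the 16 ELS with the 16 Standard libraries, added after these values were seen, gave a log2 difference of 0.54 (SE 0.21, p = 0.0162, edgeR adjusted p = 0.476). Each side held 8 GFP libraries, joined by 8 of knockdown in ELS and 8 of overexpression in Standard. Rearing was thus mixed with the Dot1l labels. Of the 16 ELS libraries, 11 exceeded the Standard median and 4, all of them knockdown libraries, the highest Standard library. The background of this comparison was 9.51% of genes at an unadjusted p under 0.05 and 0% at an adjusted one, and Ell2 was the only member under the former. Leaving out any 1 library gave differences of 0.45 to 0.64. Since the comparison was chosen from these same values, neither its p-value nor this range is an independent check. Ell2 was also the member with the least H3K79me2 among those with peaks, and its covered length in ELS was 0.92 times that in Standard.

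Cdk9 had its highest median in overexpression, at 15.6 CPM (10.3 to 52.6), against 10.6 in Standard GFP (1.76 to 17.9), 13.2 in ELS GFP (10.3 to 18.7) and 11.6 in knockdown (7.60 to 19.8). In overexpression, 7 of 8 libraries lay above the Standard GFP median, but only 2 lay above its highest library. The log2 difference from Standard GFP was 0.80 (SE 0.33, p = 0.0203, adjusted p = 0.33). Without overexpression replicate 1, at 52.6 CPM, it was 0.40, and without the 4 libraries named above it was 0.21. Counts of Cdk9 were low in shallow libraries, down to 1 count in Standard GFP replicate 5.

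**Figure D4:**
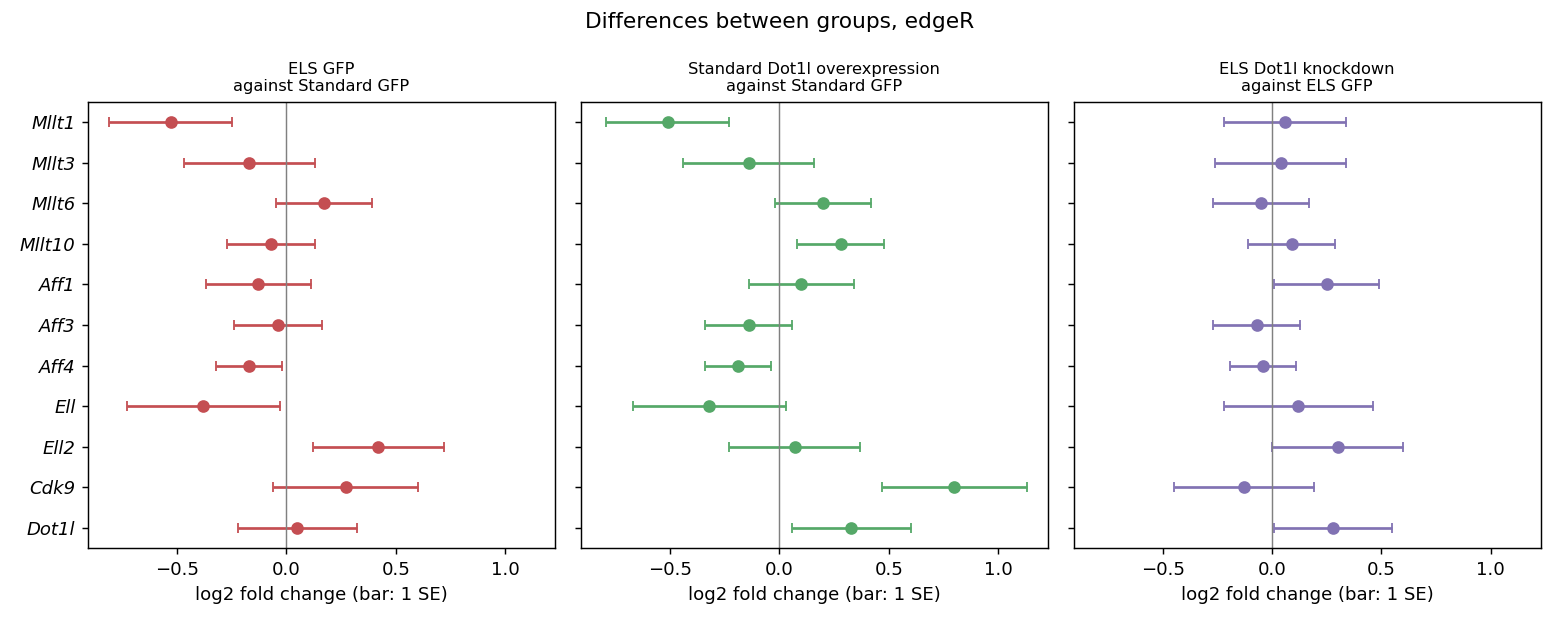
Log2 fold change (x axis, edgeR, bars of 1 SE) of the 10 members and Dot1l in ELS GFP against Standard GFP, Standard Dot1l overexpression against Standard GFP and ELS Dot1l knockdown against ELS GFP. Cdk9 in overexpression, at 0.80, lies farthest from it, and no difference passed the adjusted threshold.

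Since Dot1l did not separate the groups, its level was compared with that of the members across the 32 libraries, with group means removed from log2 CPM and p-values from 100000 permutations within groups, adjusted over 14015 genes. Cdk9 had the highest correlation of the members, with a Pearson r of 0.626 (permutation p = 0.00085, adjusted p = 0.0854) and a Spearman rho of 0.613 (permutation p = 0.00023, adjusted p = 0.111). It was positive in all 4 groups, at 0.85, 0.599, 0.553 and 0.339 in Standard GFP, ELS GFP, overexpression and knockdown. Of all genes, 99.4% had a lower r than Cdk9 with all libraries. The share was 95.2% without the shallow libraries and 92.3% without the 4 that dominated many genes. It was 96.0% without the 2 libraries farthest from the median of Dot1l. Mllt6 followed with an r of 0.603 (permutation p = 0.00644, adjusted p = 0.142) and a rho of 0.462 (permutation p = 0.00696, adjusted p = 0.212). No member passed the threshold, which 0.271% of genes passed by Pearson's r and 0% by Spearman's rho. The median r over all genes was 0.08.

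Without the 2 libraries whose Dot1l level lay farthest from the median, Standard GFP replicate 5 and ELS GFP replicate 3, the r of Cdk9 was 0.427 (permutation p = 0.028, adjusted p = 0.301) and that of Mllt6 was 0.259. Standard GFP replicate 5 was a shallow library in which Mllt6, Cdk9 and Dot1l were all at the lowest level of their group. Without it alone the r of Mllt6 was 0.307 and that of Cdk9 0.436, and without ELS GFP replicate 3 alone they were 0.622 and 0.64. Mllt10, at 0.361, and Ell2, at 0.379, were also positive in all 4 groups, without passing the threshold. The share of all genes that were positive in all 4 groups was not computed, so this is not read as a trait of the members. Ell and Mllt1 were negative over all libraries, at -0.384 and -0.286, and stood at 0.075 and -0.055 without those 2. Aff3 went from -0.018 over all libraries to -0.419 without those 2 (permutation p = 0.00659, adjusted p = 0.189). Mllt3 went from 0.156 to -0.437 without the 4 libraries that dominated many genes (permutation p = 0.0339, adjusted p = 0.232).

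**Figure D5:**
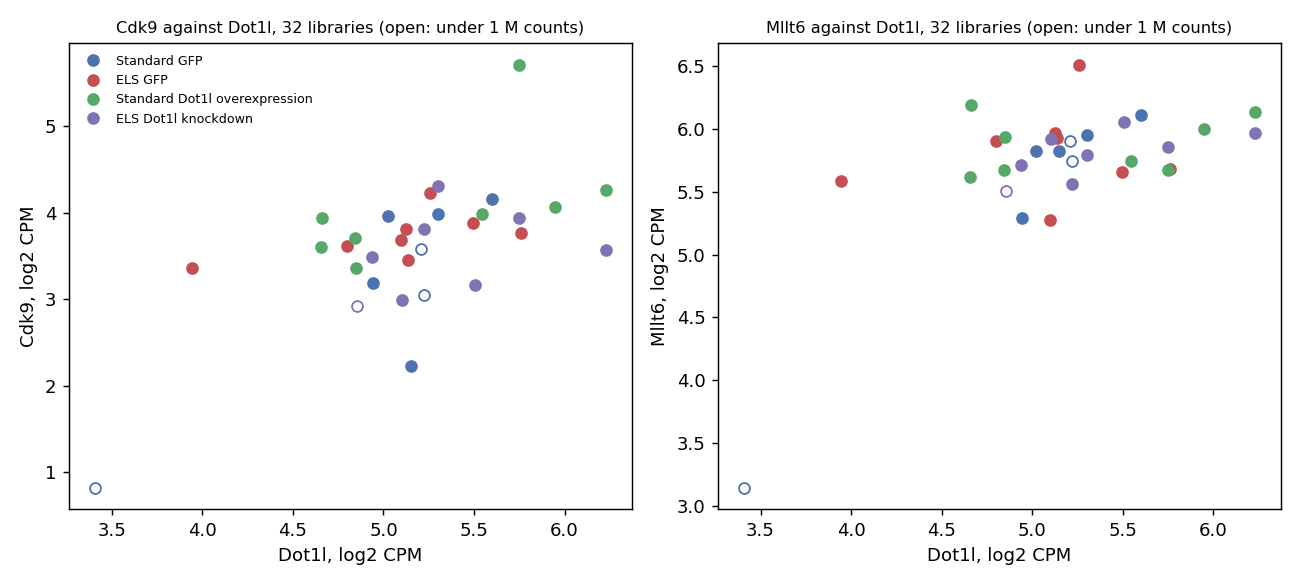
Log2 CPM of Cdk9 (left) and Mllt6 (right) against log2 CPM of Dot1l in the 32 libraries, coloured by group, with open points for libraries under 1 M counts; group means are not removed here. The point at the lower left of both panels is Standard GFP replicate 5, which was left out, with ELS GFP replicate 3, for the r of 0.427 for Cdk9 and 0.259 for Mllt6.

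The wider elongation machinery was taken as 53 further genes of the count table, Dot1l included: other DOT1L and super elongation complex subunits and relatives, regulators of P-TEFb, the little elongation complex, pausing factors, the PAF1 complex, H2B ubiquitin ligases and MLL1 with menin. Of these, 49 were tested and 0 passed edgeR's adjusted threshold in any comparison. DESeq2 called 1 of them, Rnf20, in knockdown against Standard GFP and for any difference among the groups, and edgeR without the shallow libraries called Nelfe for the latter. At an unadjusted p under 0.05, 2 were higher and 7 lower in ELS GFP against Standard GFP. The counts were 2 higher and 5 lower in overexpression, 1 and 2 in knockdown against ELS GFP, and 2 and 7 in knockdown against Standard GFP. Over all 14016 genes there were also more lower than higher ones at such a p, with 4% higher and 7.73% lower in ELS GFP, 4.59% and 6.28% in overexpression, 2.23% and 3.95% in knockdown against ELS GFP, and 3.11% and 7.7% in knockdown against Standard GFP. The 49 genes' median log2 differences were -0.08, -0.08, 0.02 and -0.06.

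The smallest p-values for ELS GFP were those of Nelfe, a subunit of the NELF pausing complex, at -2.47 (SE 0.64, adjusted p = 0.12), Rnf20, a subunit of the H2B ubiquitin ligase, at -0.87 (SE 0.28, adjusted p = 0.159), and Ice2 of the little elongation complex, at -1.99 (SE 0.72, adjusted p = 0.215). Standard GFP replicate 6 held 76.0% of the group's Nelfe and 84.8% of its Ice2, and without that library the differences were -0.58 and 0.54. The highest Standard GFP library for Rnf20, replicate 5, held 30.5% of the group's sum, and the difference of Rnf20 was -0.56 without it. Without the 4 libraries named above the differences of Nelfe, Rnf20 and Ice2 were -0.58, -0.18 and 0.43. For overexpression the genes were Kmt2a, which encodes MLL1, at -0.53 (SE 0.16, adjusted p = 0.17), Rnf20 at -0.88 and Nelfe at -1.86. Kmt2a had medians of 141 CPM in overexpression and 184 CPM in Standard GFP, and its difference was -0.35 without those libraries. That of Rnf20 was then -0.13 and that of Nelfe -0.03.

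In knockdown against ELS GFP they were Trrap, a scaffold of histone acetyltransferase complexes, at 0.62 (SE 0.20, adjusted p = 0.36), and the PAF1 complex genes Paf1 at -1.28 and Rtf1 at -0.70. Paf1 and Rtf1 were -0.23 and -0.15 without the 4 libraries, and Trrap was 0.33 without the shallow ones. In knockdown against Standard GFP they were Rnf20 at -1.03, Ice2 at -1.82 and Ccnt1, which encodes the cyclin T1 partner of CDK9, at -1.01 (SE 0.40, adjusted p = 0.304). Ccnt1 had medians of 13.9 CPM in knockdown and 22.1 in Standard GFP, where 51.6% of the group's sum lay in replicate 4, a library under 1 M counts. Its difference was -0.28 without that library and -0.39 without the shallow ones. Without the 4 libraries Rnf20 was at -0.35, and Ice2 turned to 0.57. In the test of any difference the smallest were Nelfe, Rnf20 and Ice2, with adjusted p of 0.0764, 0.0864 and 0.171. For the 16 ELS against the 16 Standard libraries they were Larp7, a regulator of P-TEFb, at -1.50, Ccnt1 at -0.73 and Rnf20 at -0.51. Without the 4 libraries these were -0.16, -0.87 and -0.20, and Ccnt1 was -0.42 without the shallow ones.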

How the data were processed

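Per the submitters' processing notes, FastQC, HISAT2, featureCounts and DESeq2 were used with build mm10. Not given in the sources used here are their versions and roles, the strand setting, the peak caller and any pooling of ChIP libraries. The deposited count table holds raw counts per Ensembl gene. The authors' peak lists give per peak, per the file headers, a q-value and a ratio, the fold enrichment, with 1 list per rearing condition and gene annotation lines. No column of the tables was left without a sample.

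Counts of 32 libraries were fitted together with edgeR 4.0.16 in R 4.3.3 (TMM factors, filterByExpr, robust quasi-likelihood, 1 mean per group, 28 residual degrees of freedom), with Benjamini-Hochberg adjustment over 14016 genes and a threshold of 0.05. The fit was tested on simulated data. DESeq2 1.42.0 and limma 3.58.1 served as alternatives. Without a stated strand, reads of overlapping genes cannot be told apart. Correlations used log2 CPM with a prior count of 2. Peak lines were reduced to distinct peaks per gene; overlap meant at least 1 base. Promoters came from RefSeq, GRCm38.p6. Ensembl IDs were matched to symbols for 52403 of 52636 genes.

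Every member is named, with Dot1l, and of other pathway genes those past the threshold or, where none passed, the 3 with the smallest p in each comparison. The members and lists were chosen with earlier results of these data known. Libraries with the same number in their titles did not deviate together on average. Their mean correlation was 0.0268 over 90 pairs, against -0.00618 over 294 pairs with different numbers. No block entered the main fit. All 4 libraries that dominated many genes nonetheless carried the number 2. So did Standard GFP replicates 4 and 5 and ELS Dot1l knockdown replicate 7, which were shallow. The part of the number in the results was not tested beyond a fit with it as a block, given below. Marker sums of 7 cell types were computed.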

Additional observations from a re-analysis of the deposited data

Results flagged for a closer look

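The highest or lowest library stood far from the other 7 (a gap to the next above 0.526 of the group's range) in 9 of 44 gene and group combinations. Chance gives about 1 in 20 for normally distributed values and independent combinations. These were unlogged CPM values of the same libraries across genes, so that rate is only a rough guide. Standard Dot1l overexpression replicate 1 was highest for Mllt3 (294 CPM, next 137), Mllt10 (173, next 84.7) and Cdk9 (52.6, next 19.3). Standard GFP replicate 6 was highest for Mllt3 (345 CPM, next 138) and Aff3 (260, next 152). Standard GFP replicate 5 was highest for Ell (66.9 CPM, next 20.2) and lowest for Dot1l (10.6 CPM, next 30.8). ELS GFP replicate 7 was highest for Mllt1 (24.5 CPM, next 17.7) and Mllt6 (91.5 CPM, next 62.6). The first 3 of these libraries were among the 4 that dominated many genes of their groups.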

How the results depend on the processing

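No alternative called a member: the count was 0 under each fit in every comparison, 0 to 0 when any 1 of the 32 libraries was left out, 0 for the correlations, and 0 with the title number as a replicate block (lowest adjusted p 0.689). Counts over all genes did depend on the tool. For ELS GFP, overexpression and knockdown against Standard GFP, and knockdown against ELS GFP, DESeq2 called 85, 41, 74 and 2 genes where edgeR called 0, and edgeR without shallow libraries called 7, 18, 0 and 0. For any difference among the 4 groups, 901 were called without the low-count filter, 57 with upper quartile factors and 0 with voom, the block or without the 4 dominating libraries, an alternative added after seeing the data. Of 41 member differences, 29 kept their direction without those libraries. Those that did not were, against Standard GFP, in ELS GFP Mllt3 (0.09), Aff3 (0.04) and Ell (0.19), in overexpression Mllt10 (-0.02) and Ell (0.26), and in knockdown Mllt3 (0.12), Mllt6 (-0.09), Mllt10 (-0.01), Aff3 (0.05), Ell (0.29) and Cdk9 (-0.05); against ELS GFP it was Aff3 (0.01). With voom they were Aff3 (0.05) and Ell (0.15) in ELS GFP, Aff3 (0.02) and Ell (0.07) in overexpression, Mllt6 (-0.10), Mllt10 (-0.02) and Ell (0.35) in knockdown against Standard GFP, and Mllt3 (-0.11) against ELS GFP. Without shallow libraries they were Ell (0.12, 0.18 and 0.25 in ELS GFP, overexpression and knockdown), Ell2 in overexpression (-0.07) and Mllt10 in knockdown (-0.03). Upper quartile factors turned Mllt10 (0.02) and Aff3 (0.06) in ELS GFP, DESeq2 turned Mllt10 in knockdown (-0.02), and the replicate block turned Mllt6 in knockdown against ELS GFP (0.05) and Aff1 in knockdown against Standard GFP (-0.02). The cause was not tested. An overlap of 50% of the shorter peak lowered the overlapping shares to 59.7% of Standard and 84.0% of ELS peaks, and a q-value of at most 0.01 left a covered-length ratio of 0.738.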
